A study of Mus musculus with 2 samples.

Results

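*Cx3cr1*, *Ccr1*, *Ccr2*, *Ccr7* and *Ccrl2* encode chemokine receptors, and a related protein, of monocytes, macrophages and dendritic cells. The 5 genes were chosen by name, with earlier results of these data known. Each is among the 13289 genes listed in both single-cell libraries of the study (13755 genes in Gata3KO and 13905 in Wt). Both libraries hold live cells that were CD45+, CD11b+ and Ly6G- (Ly6G marks neutrophils), sorted from tibialis anterior muscle on day 4 after 50 µl of 10 µM cardiotoxin from *Naja pallida*, a snake venom toxin that lyses muscle fibres. The Gata3KO library is from C57BL/6:Cx3cr1CRExGata3fl/fl mice, in which Cre made under the control of *Cx3cr1* removes the floxed *Gata3* gene, and the Wt library is from C57BL/6 mice, so the comparison asks how the myeloid cells differ with *Gata3* deleted. One of the 5 receptors therefore also drives the deletion, and the Wt mice are not described as carrying Cre. The labels give neither the kind of Cre allele (put in place of a copy of *Cx3cr1* or added to the genome) nor the age of the mice or the number pooled per library.

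Chemokine receptors are membrane-spanning proteins that couple to inhibitory G proteins and steer cells along chemokine gradients. Ccr2 binds Ccl2, Ccl7 and Ccl12 and brings inflammatory monocytes out of the bone marrow into injured tissue. Cx3cr1 binds Cx3cl1 (fractalkine), and in mouse blood it is low on inflammatory monocytes and high on patrolling ones. As monocytes become macrophages in injured muscle, they are known to lose Ccr2 and gain Cx3cr1. Ccr1 binds Ccl3, Ccl5, Ccl6, Ccl7 and Ccl9. Ccr7 binds Ccl19 and Ccl21 and takes mature dendritic cells to lymph nodes. Ccrl2 is an atypical member that holds the attractant chemerin (encoded by *Rarres2*) at the cell surface without signalling itself, and inflammatory stimuli induce it.

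The Gata3KO table held 19422237 UMIs (unique molecular identifiers, each a counted transcript) in 3434 barcodes, and the Wt table held 15392330 UMIs in 3290 barcodes. A limit of 10% mitochondrial UMIs kept 650 Gata3KO cells (18.9% of barcodes) with a median of 13716 UMIs, and 990 Wt cells (30.1%) with a median of 5836. The 2 libraries shared 2 barcodes, of which 0 were among the kept cells. *Gata3* had 1 UMI in the kept Gata3KO cells and 4 in the kept Wt cells, too few to check the deletion. With 1 library per genotype no test was possible, and a genotype cannot be told apart from the mice or the preparation behind its library. Intervals are at the 95% level and cover counting error only.

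Joint clustering, with these receptors and the other chemokine receptors left out of the genes it used, gave 3 clusters of monocytes and macrophages. A *Gpnmb* macrophage-like cluster, led by *Gpnmb*, *Fabp5*, *Syngr1*, *Hebp1* and *Ctsd*, held 195 Gata3KO and 118 Wt cells. An interferon-gene cluster, led by *Ccl12*, *Iigp1*, *Gbp2*, *Ifit2* and *Slfn1*, held 40 Gata3KO and 249 Wt cells. It was called macrophage-like on a low marker score (0.25), by a naming rule that was changed after its receptor levels had been seen. The B cell list scored higher (0.26) but had fewer than the 3 detected markers that the rule asks for, and the conventional dendritic cell 1 list scored 0.18. The receptor ratios of the class are therefore also given without this cluster, while shares, ranks and gene lists of the class are given with it. A stress-gene macrophage-like cluster, led by *Cxcl2*, *Gdf15*, *Ier3*, *Cxcl1* and *Tnf*, held 169 Gata3KO and 58 Wt cells. The class thus joined 404 Gata3KO cells, most of them from the *Gpnmb* and stress-gene clusters, with 425 Wt cells, most of them from the interferon-gene cluster. Dendritic cells were a cDC2-like cluster with *Cd209a* (61 Gata3KO and 187 Wt cells) and a mature dendritic cell-like cluster with *Fscn1* (10 Gata3KO and 71 Wt cells). A low-UMI cluster (82 Gata3KO and 215 Wt cells) and a cluster of collagen and cell-cycle genes (91 Gata3KO and 66 Wt cells) were left unnamed; the marker scores called that last cluster cycling, but its leading genes were of collagen and other matrix proteins. A further 2 Gata3KO and 26 Wt cells carried muscle transcripts.

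Summed over monocytes and macrophages, *Ccr2* was lower in the Gata3KO library, and *Cx3cr1*, *Ccr1* and *Ccrl2* were higher. For *Ccr2* and *Ccrl2* the direction turned when the levels of the 3 clusters were averaged with equal weight. Levels are given as CPM, the UMIs of the gene over all UMIs of the cells summed, scaled to a common total, and are compared between cells, not between genes. Genes were compared when they reached 50 CPM in either library and 100 UMIs over both. Of these 3089 genes 5.31% were over 1.5-fold higher in Gata3KO, 8.16% were over 1.5-fold lower, and the median log2 ratio Gata3KO over Wt was 0.06. *Ccr1* and *Ccrl2* were past 1.5-fold higher, *Ccr2* was past 1.5-fold lower, and *Cx3cr1* was within that fold. These calls depended on the makeup of the class. Without the interferon-gene cluster *Ccr1* (log2 ratio 0.34) and *Ccrl2* (0.24) were within 1.5-fold, while *Ccr2* (-0.63) was still past it. With the cells reclustered at resolution 0.3, *Ccr2* (-0.37) was within it too. *Ccr7* did not reach these limits in the class. Among the 3089 genes *Ccr1* ranked 58 and *Ccrl2* 62 from the highest ratio, and *Ccr2* ranked 136 from the lowest.

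**Figure D1:**
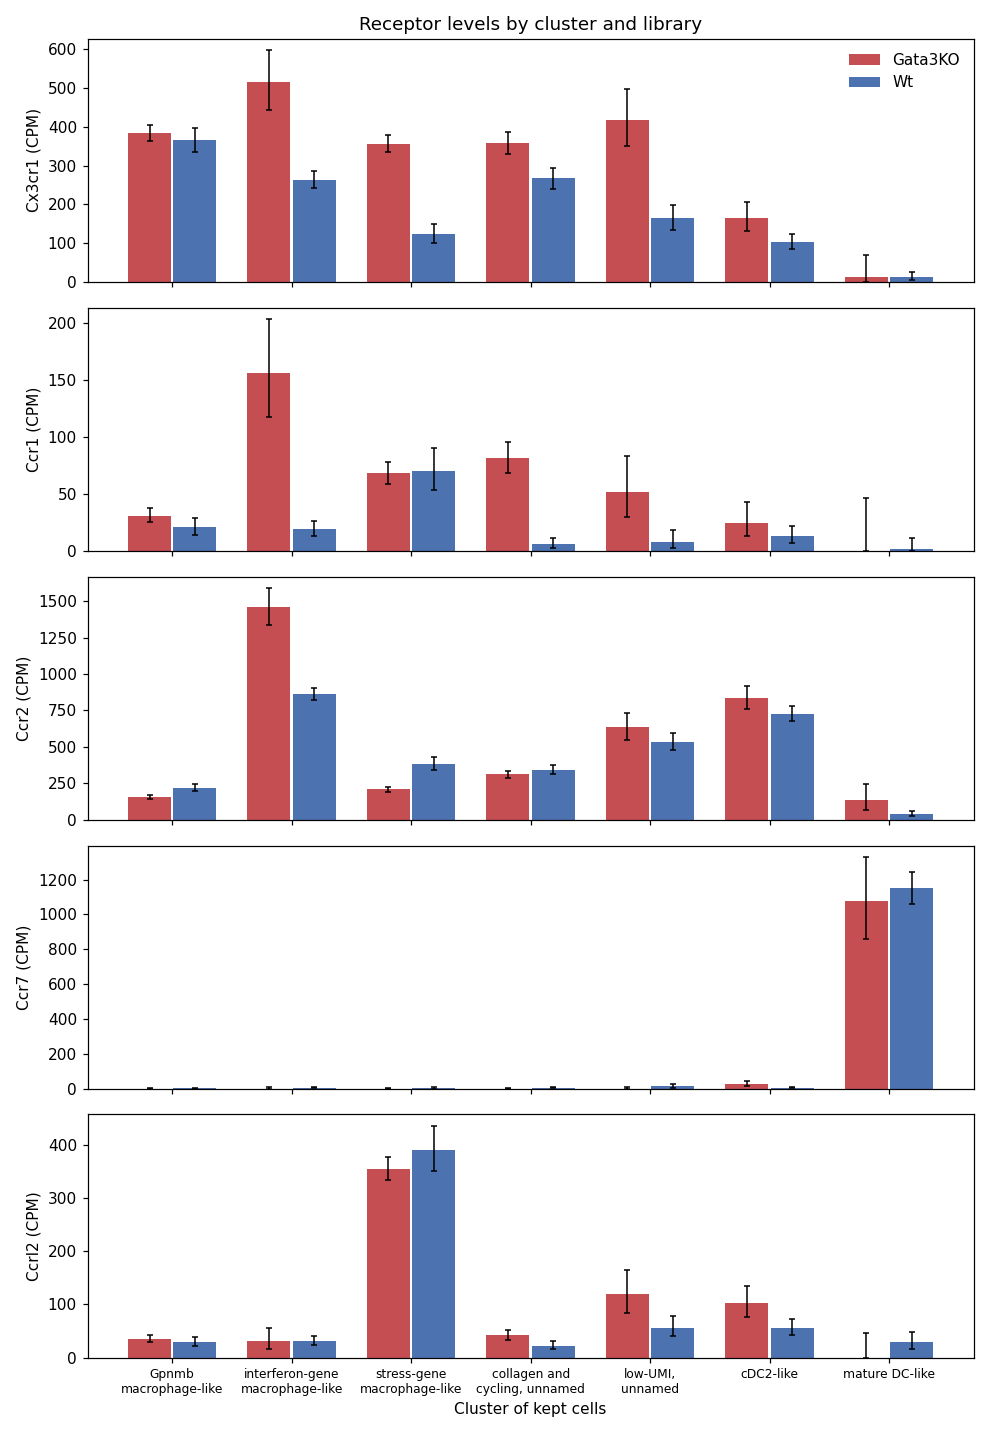
Levels of the 5 receptors (y axes, CPM of summed UMIs) in 7 clusters of kept cells (x axis), with Gata3KO bars left of Wt bars and error bars of 95% Poisson counting intervals, from 1 library per genotype. *Ccr2* stood highest in the interferon-gene cluster (1456 CPM in Gata3KO and 864 in Wt), *Ccr7* in the mature dendritic cell-like cluster (1076 CPM in Gata3KO and 1149 in Wt) and *Ccrl2* in the stress-gene cluster (355 CPM in Gata3KO and 391 in Wt).

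*Ccr2* (ENSMUSG00000049103), the receptor of monocyte recruitment, lies on the plus strand of mm10 chromosome 9, from 124101950 to 124113557. It stood at 245 CPM in Gata3KO monocytes and macrophages (1681 UMIs, interval 233 to 257 CPM), against 543 CPM in Wt (2425 UMIs, 521 to 565 CPM). The log2 ratio was -1.15 (-1.24 to -1.06), a level 2.22-fold lower in Gata3KO, and the 2 intervals did not overlap. Without the interferon-gene cluster the log2 ratio was -0.63. The mean of the 3 clusters' own log2 ratios, with 1 CPM added, was -0.21, whereas the mean of their levels was 606 CPM in Gata3KO and 489 CPM in Wt, a log2 ratio of 0.31 in the other direction.

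The 3 macrophage-like clusters did not share 1 direction for *Ccr2*. In the *Gpnmb* cluster it stood at 153 CPM in Gata3KO and 220 in Wt (log2 ratio -0.52, -0.72 to -0.33). In the stress-gene cluster it stood at 209 CPM in Gata3KO and 384 in Wt (-0.87, -1.07 to -0.68). The interferon-gene cluster went the other way, with 1456 CPM in Gata3KO and 864 in Wt (0.75, 0.61 to 0.90). The lower class level in Gata3KO thus sat beside a different makeup: the interferon-gene cluster, highest in *Ccr2* in both libraries, gave 42.5% of all *Ccr2* UMIs of the Wt cells and 17.9% of those of the Gata3KO cells. These came from 24.3% of all UMIs in Wt and 3.65% in Gata3KO.

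Monocyte markers were compared in the same cells. The summed level of the 9 listed monocyte markers, all of them with a UMI in both libraries, was 804 CPM in the Gata3KO class and 2400 CPM in the Wt class. In the stress-gene cluster it was 519 CPM in Gata3KO and 4436 in Wt, with *Plac8* at 64.0 CPM in Gata3KO and 1654 in Wt, and *Ly6c2* at 152 CPM in Gata3KO and 937 in Wt. In the interferon-gene cluster it was 3989 CPM in Gata3KO and 2761 in Wt, the same direction as *Ccr2* there. In the *Gpnmb* cluster it was 731 CPM in Gata3KO and 846 in Wt, with *Plac8* at 20.8 CPM in Gata3KO and 75.4 in Wt, but *Ly6c2* at 398 CPM in Gata3KO and 173 in Wt. In 2 clusters outside the class the sum was lower in Gata3KO while *Ccr2* was not: it was 1956 CPM in Gata3KO and 4127 in Wt in the cDC2-like cluster, with *Vcan*, *Hp* and *F10* at 0 in Gata3KO, and 361 CPM in Gata3KO and 608 in Wt in the low-UMI cluster, with *Hp* and *Ifitm6* among those at 0 in Gata3KO. The part that a different share of monocytes plays in the *Ccr2* ratios was not tested.

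Dendritic cells and the unnamed clusters carried *Ccr2* as well. The cDC2-like cluster had 836 CPM in Gata3KO and 729 in Wt (log2 ratio 0.20, 0.02 to 0.37). The low-UMI cluster had 635 CPM in Gata3KO and 535 in Wt (0.25, -0.01 to 0.50), and the collagen and cycling cluster had 311 CPM in Gata3KO and 341 in Wt (-0.13, -0.31 to 0.04). In these last 2 clusters the intervals included 0. The mature dendritic cell-like cluster was low, with 11 UMIs from 1 Gata3KO cell and 21 UMIs from 9 Wt cells. Over all kept cells *Ccr2* stood at 296 CPM in Gata3KO and 494 in Wt (-0.74, -0.81 to -0.67), and with every cell weighted alike the log2 ratio was -0.47.

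*Cx3cr1* (ENSMUSG00000052336; chromosome 9, 119901616 to 120069879, minus strand), the fractalkine receptor and the driver of the Cre, stood at 379 CPM in Gata3KO monocytes and macrophages (364 to 393 CPM) and 273 CPM in Wt (257 to 288 CPM). The log2 ratio was 0.47 (0.38 to 0.57), and without the interferon-gene cluster it was 0.41. Its level was higher in Gata3KO in 6 of the 6 clusters in which both libraries had 20 cells or more, and the interval lay above 0 in 5 of them. The exception was the *Gpnmb* cluster, where *Cx3cr1* stood at 384 CPM in Gata3KO and 365 in Wt (0.07, -0.07 to 0.22).

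The size of the *Cx3cr1* difference varied between clusters. It was widest in the stress-gene cluster, with 356 CPM in Gata3KO and 123 in Wt (1.54, 1.25 to 1.84), where, of the 3 macrophage-like clusters, the summed monocyte markers were furthest lower in Gata3KO. The interferon-gene cluster had 517 CPM in Gata3KO and 263 in Wt (0.97, 0.72 to 1.22), although monocyte markers were higher there in Gata3KO. The low-UMI cluster had 419 CPM in Gata3KO and 165 in Wt (1.35, 0.96 to 1.73). The cDC2-like cluster had 165 CPM in Gata3KO and 102 in Wt (0.70, 0.26 to 1.12), and the collagen and cycling cluster had 358 CPM in Gata3KO and 267 in Wt (0.42, 0.24 to 0.61). Mature dendritic cell-like cells had 1 *Cx3cr1* UMI in 10 Gata3KO cells and 6 UMIs in 71 Wt cells, the lowest level among clusters in each library.

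**Figure D2:**
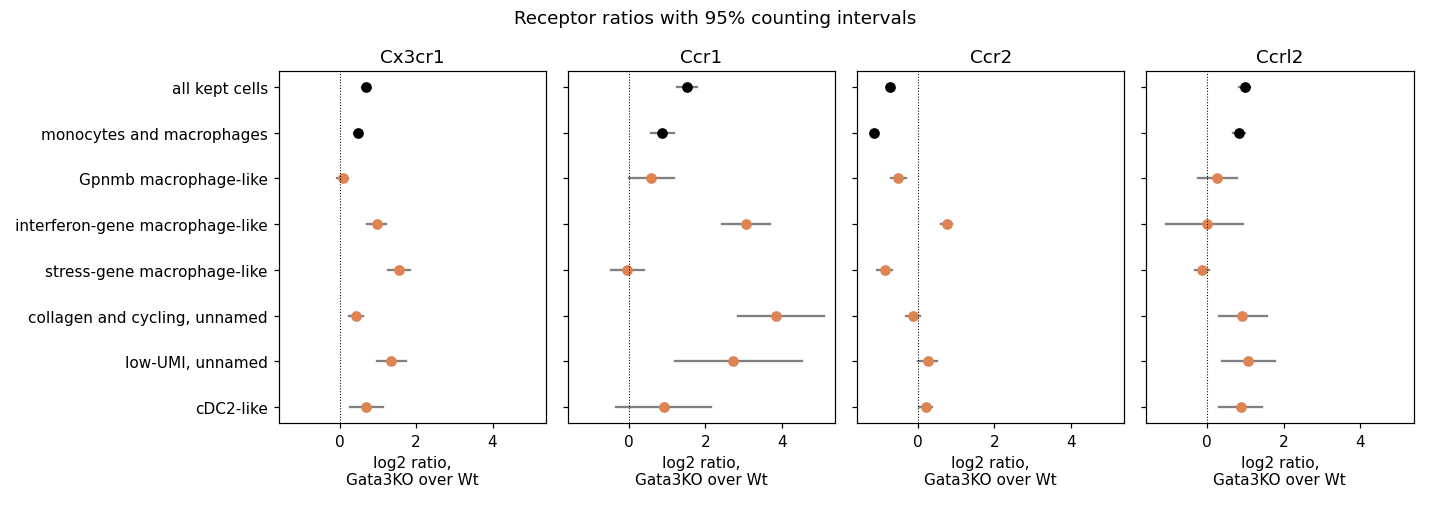
Log2 ratio of the level in Gata3KO over that in Wt (x axes) for 4 receptors in 8 sets of cells (rows), with points for the ratio, lines for the 95% counting interval, black for pooled sets and orange for clusters. *Cx3cr1* lies right of 0 throughout, while *Ccr2* lies left of 0 in the *Gpnmb* and stress-gene clusters and right of it in the interferon-gene cluster. *Ccr7* is not drawn, because several clusters had no UMI of it in Gata3KO.

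*Cx3cr1* and *Ccr2* were also read cell by cell, since they are known to change in opposite directions as monocytes become macrophages. Because Gata3KO cells were deeper (median 16832.5 UMIs in the Gata3KO class and 8617 in the Wt class), shares are those expected when each cell is thinned at random to 2000 UMIs, which left out 29 Gata3KO and 26 Wt cells of the class. Cells with *Cx3cr1* but no *Ccr2* made up 26.0% of 375 Gata3KO cells (21.6 to 30.7%) and 16.1% of 399 Wt cells (12.6 to 20.04%). Cells with *Ccr2* but no *Cx3cr1* made up 12.7% in Gata3KO (9.47 to 16.5%) and 32.3% in Wt (27.7 to 37.1%). Cells with both made up 15.7% in Gata3KO and 18.7% in Wt, with overlapping intervals (12.1 to 19.7% in Gata3KO and 14.95 to 22.8% in Wt). The product of the 2 single shares was 11.8% in Gata3KO and 17.7% in Wt, so cells with both were not fewer than that product. The share with both also lay above the product in each macrophage-like cluster of each library. Without thinning the shares with *Cx3cr1* alone were 28.0% in Gata3KO and 14.6% in Wt, and those with *Ccr2* alone were 9.65% in Gata3KO and 27.3% in Wt. With up to 20% mitochondrial UMIs allowed and the cells reclustered, the thinned difference, Gata3KO minus Wt, was 3.17 percentage points for *Cx3cr1* alone, against 9.89 at 10%. For *Ccr2* alone it was -7.51, against -19.6. The class then held 38.7% of Gata3KO and 23.6% of Wt cells, against 62.2% and 42.9% at 10%. The limit and the makeup of the class thus changed together, and their parts were not tested.

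Within the stress-gene cluster *Cx3cr1* without *Ccr2* was found in 27.7% of 165 Gata3KO cells (21.0 to 35.2%) and 10.5% of 57 Wt cells (3.98 to 21.5%), and *Ccr2* without *Cx3cr1* in 11.3% of Gata3KO and 34.2% of Wt cells. In the *Gpnmb* cluster the libraries were close: *Cx3cr1* without *Ccr2* took 27.4% of 175 Gata3KO cells and 29.0% of 115 Wt cells. In the interferon-gene cluster, cells with both receptors took 41.6% of 35 Gata3KO cells (25.2 to 59.4%) and 23.6% of 227 Wt cells (18.2 to 29.7%), with intervals that overlapped. In the mature dendritic cell-like cluster, which serves as the background, *Cx3cr1* was found in 0 of 8 Gata3KO cells, a count that allows up to 37.5%, and in 2.25% of 58 Wt cells (median 7649.5 UMIs in Gata3KO and 6900 in Wt before thinning). There *Ccr1* was found in 0 cells of either library. *Ccrl2* was found in 0 Gata3KO cells and 2.82% of Wt cells. Its Wt level there (29.4 CPM) was near that of the Wt *Gpnmb* cluster (29.5 CPM), so the cluster is no background for *Ccrl2*.

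**Figure D3:**
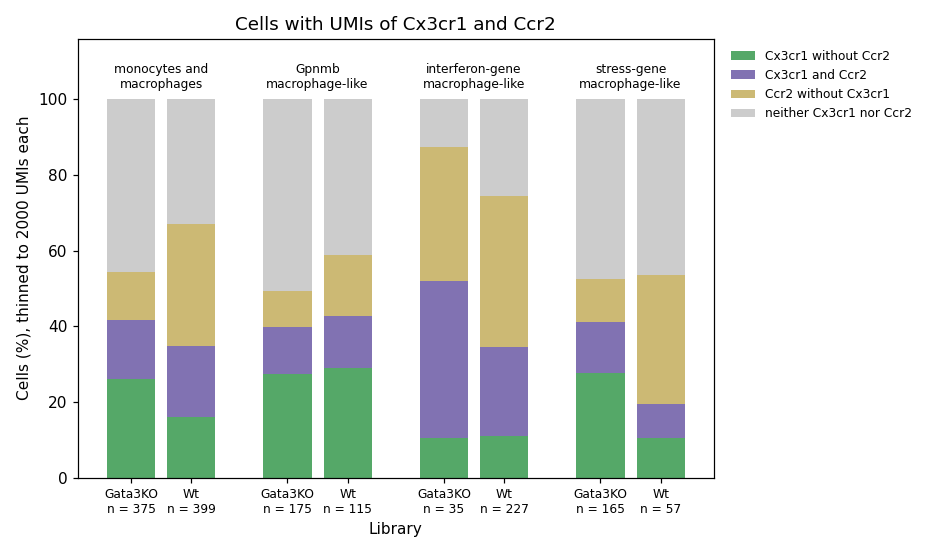
Expected share of cells (y axis, %) with a UMI of *Cx3cr1*, *Ccr2*, both or neither when each cell is thinned to 2000 UMIs, in monocytes and macrophages and in their 3 clusters, with Gata3KO left of Wt and n the cells deep enough. *Ccr2* without *Cx3cr1* takes 12.7% of Gata3KO and 32.3% of Wt cells of the class.

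*Ccr1* (ENSMUSG00000025804; chromosome 9, 123962124 to 123968692, minus strand), a receptor for inflammatory chemokines, had the fewest UMIs of the 4 receptors measured in monocytes and macrophages: 369 UMIs in 128 of 404 Gata3KO cells and 131 UMIs in 64 of 425 Wt cells. The level was 53.7 CPM in Gata3KO (48.4 to 59.5 CPM) and 29.3 CPM in Wt (24.5 to 34.8 CPM), a log2 ratio of 0.87 (0.58 to 1.17). Without the interferon-gene cluster the log2 ratio was 0.34. The thinned shares of cells with *Ccr1* were 8.64% in Gata3KO (6.00 to 11.9%) and 4.69% in Wt (2.84 to 7.25%), with intervals that overlapped.

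The *Ccr1* difference was not even across clusters. In the stress-gene cluster, the highest in *Ccr1* in Wt, it stood at 67.9 CPM in Gata3KO and 70.0 CPM in Wt (log2 ratio -0.04, -0.46 to 0.40). In the *Gpnmb* cluster it stood at 30.9 CPM in Gata3KO and 20.7 in Wt (0.57, with an interval from just under 0 to 1.18). In the interferon-gene cluster it stood at 156 CPM in Gata3KO and 18.8 CPM in Wt (3.05, 2.43 to 3.69), but the Gata3KO value came from 55 UMIs in 9 of 40 cells, 20 of them in 1 cell. In the cDC2-like cluster it rested on 12 Gata3KO and 14 Wt UMIs, and the interval of the ratio included 0.

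The widest *Ccr1* difference lay outside the class, in the collagen and cycling cluster, with 81.1 CPM in Gata3KO and 5.58 CPM in Wt (3.86, 2.85 to 5.10). When that cluster was divided, after its mixed genes had been seen, a resident macrophage-like portion led by *Hmox1*, *F13a1*, *Stab1*, *Ccl8* and *Clec4n* held 138 *Ccr1* UMIs in 59 Gata3KO cells and 4 UMIs in 27 Wt cells. Of these cells, 29 Gata3KO and 3 Wt cells had a *Ccr1* UMI, and the log2 ratio was 3.83 (2.44 to 5.72). The 9 listed resident macrophage markers summed to 5325 CPM in the Gata3KO portion and 2319 CPM in the Wt portion, with *Lyve1* and *Timd4* at 0 in Wt. *Ccr1* is itself among the 10 leading genes of the portion, which adds nothing to its level there. With the portion added to the class, the class log2 ratio of *Ccr1* was 1.22. The part of the resident markers in the *Ccr1* ratio was not tested.

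*Ccr7* (ENSMUSG00000037944; chromosome 11, 99144196 to 99155077, minus strand) marks dendritic cells on their way to lymph nodes, and the mature dendritic cell-like cluster held nearly all of its UMIs. That cluster gave 86.0% of the 100 *Ccr7* UMIs of the kept Gata3KO cells and 94.1% of the 624 of the Wt cells, from 0.827% of all UMIs in Gata3KO and 6.14% in Wt. Within it *Ccr7* stood at 1076 CPM in Gata3KO (86 UMIs in 10 of 10 cells, 861 to 1329 CPM) and 1149 CPM in Wt (587 UMIs in 63 of 71 cells, 1058 to 1246 CPM). The log2 ratio there was -0.10 (-0.44 to 0.23), an interval that included 0.

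Over all kept cells, by contrast, *Ccr7* stood at 10.4 CPM in Gata3KO and 75.0 CPM in Wt (log2 ratio -2.86, -3.18 to -2.55). The log2 ratio was -1.83 with every cell weighted alike and -1.92 with cells thinned. Beside it, mature dendritic cell-like cells were 1.54% of Gata3KO cells (10 of 650, exact binomial interval 0.740 to 2.81%) and 7.17% of Wt cells (71 of 990, 5.64 to 8.96%). *Ccr7* is among the leading genes of that cluster, although it was not used to form it. The cDC2-like cluster had 12 *Ccr7* UMIs from 2 Gata3KO cells and 6 UMIs from 5 Wt cells. In monocytes and macrophages *Ccr7* had 1 UMI in Gata3KO and 19 in 17 cells of Wt, and the ratio of these counts, -4.87 on the log2 scale, had an interval from -10.24 to -2.21. Without the interferon-gene cluster it was -4.00. The *Gpnmb* cluster, where *Ccr7* is not known to mark cells, had 1 UMI in Gata3KO and 4 in Wt.

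*Ccrl2* (ENSMUSG00000043953; chromosome 9, 111054486 to 111057519, minus strand), the chemerin-presenting receptor, was concentrated in the stress-gene cluster. That cluster gave 78.2% of the *Ccrl2* UMIs of the kept Gata3KO cells and 55.5% of those of the Wt cells, from 31.5% of all UMIs in Gata3KO and 10.3% in Wt. *Ccrl2* is among its 10 leading genes, without having been used to form it. Its level there was 355 CPM in Gata3KO (334 to 377 CPM) and 391 CPM in Wt (350 to 435 CPM), a log2 ratio of -0.14 (-0.32 to 0.04) whose interval included 0. The *Gpnmb* cluster was much lower, with 35.2 CPM in Gata3KO and 29.5 in Wt (0.25, -0.24 to 0.77). The interferon-gene cluster had 31.2 CPM in both libraries, on 11 Gata3KO and 63 Wt UMIs.

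For the whole class *Ccrl2* was nevertheless 1.78-fold higher in Gata3KO, with 177 CPM (167 to 187 CPM) against 99.6 CPM in Wt (90.5 to 109 CPM), a log2 ratio of 0.83 (0.67 to 0.99). Without the interferon-gene cluster the log2 ratio was 0.24. The mean of the 3 clusters' own log2 ratios was 0.04, and the mean of their levels was 141 CPM in Gata3KO and 151 CPM in Wt, a log2 ratio of -0.10 in the other direction. The stress-gene cluster held 26.0% of the kept Gata3KO cells (22.7 to 29.6%) and 5.86% of the Wt cells (4.48 to 7.51%). Thinned shares of cells with *Ccrl2* were 20.9% in Gata3KO (16.9 to 25.4%) and 10.4% in Wt (7.55 to 13.8%) for the class. Within the stress-gene cluster they were 39.4% in Gata3KO and 41.9% in Wt. Outside the class the ratio lay above 0 in the cDC2-like (0.87, 0.30 to 1.44), low-UMI (1.08, 0.38 to 1.78) and collagen and cycling (0.91, 0.30 to 1.55) clusters, at 22.3 to 119 CPM.

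The genes most like *Ccrl2* over the clusters were named by a fixed rule. Over 14 sums, each of 1 cluster in 1 library where that had 20 cells or more, the genes most like it by Pearson's correlation of log2(CPM + 10), out of 4905, were *Ifrd1* (0.94), *Tnf* (0.93), *Dusp1* (0.93), *Osm* (0.93) and *Ier3* (0.91). *Tnf* and *Osm* encode cytokines, and *Dusp1* a phosphatase that damps stress kinases. Sums of 1 library share its depth and preparation, and these values are descriptions. After *Tnf* had been seen among them, the *Ccrl2* promoter was searched for a motif of the transcription factor NF-kappaB, and a stretch upstream of the *Ccrl2* start is shown. It covers 120 bases from RefSeq (GRCm38.p6, the same assembly as mm10), from 140 to 21 bases before the start at chr9:111057539-111057658 on the minus strand, with the letters of an NF-kappaB motif in capitals:

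*Ccrl2* upstream: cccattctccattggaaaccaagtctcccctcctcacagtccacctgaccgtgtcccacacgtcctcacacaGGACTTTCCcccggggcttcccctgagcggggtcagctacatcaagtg

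The letters GGACTTTCC lie 68 to 60 bases before the start, and 0.283% of 32851 promoter windows of 250 bases hold them on either strand. The windows of the other 2 annotated *Ccrl2* starts do not hold them. The motif GAGGAA of the myeloid factor PU.1 was found once in the window of *Ccr1*, 129 to 124 bases before the start, and in 23.3% of all windows. Neither motif, nor the letters TTGCNNAA of C/EBP factors (9.56% of windows), was found in the windows of *Cx3cr1* and *Ccr2*. Both of these windows, and those of *Ccrl2*, overlap annotated exons of their own gene. The *Ccr2* window runs from 124101933 to 124102182, mostly past the gene start given above, so the absence is read partly from transcribed sequence. A match or its absence is a description of the letters.

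The other receptors had neighbours of their own over the same 14 sums. *Cx3cr1* was most like *Tpcn1* (0.96), *Adam15* (0.94), *Tgfbi* (0.94), *P2ry6* (0.93) and the mitochondrial *mt-Nd2* (0.92). *Ccr1* was most like *F13a1* (0.92), the coagulation factor gene of resident-like macrophages, and then *Clec4n*, *Chil3*, *Ccl7* and *Mapkapk2* (0.81 to 0.83). *Ccr2* was most like *Arhgap15* (0.92), *Lrmp* (0.91), *Irf2* (0.90), *Cd300ld* (0.90) and *Acer3* (0.89), and *Ccr7* like *Il4i1* (0.97), *H2-Eb2* (0.97), *Birc2* (0.96), *Apol7c* (0.96) and *Serpinb9* (0.96). Among the receptors themselves the strongest relation was negative, -0.89 between *Ccr7* and *Cx3cr1*, while *Ccrl2* had almost none with *Cx3cr1* (0.03) or *Ccr2* (0.05). Only the Wt mature dendritic cell-like sum was high in *Ccr7* (1149 CPM), the others reaching at most 24.5 CPM. That sum was also the lowest in *Cx3cr1* (11.7 CPM), so the -0.89 and the *Ccr7* neighbours depend largely on that 1 sum. With 1 CPM added in place of 10, 3 of the 5 genes stayed among the 5 most alike for *Cx3cr1* and for *Ccr2*, 2 for *Ccr1* and for *Ccr7*, and 4 for *Ccrl2*.

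All but *Ccr7* lie on chromosome 9, and being close on it did not go with a shared direction. *Ccr1* and *Ccr2* are 133 kilobases apart, *Ccr1* being higher and *Ccr2* lower in the Gata3KO class. Chemokine receptor genes resemble each other in sequence, and whether the division of reads between them moved these counts was not tested.

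At 20 CPM or more in 1 library of monocytes and macrophages, 5895 genes had a median log2 ratio of 0.05, with 4.78% over 1.5-fold higher and 7.63% over 1.5-fold lower in Gata3KO. Of 19 other chemokine receptors 2 reached that level, among them *Cxcr4*, the receptor of the bone marrow chemokine Cxcl12, with 368 CPM in Gata3KO and 176 in Wt (1.06, 0.95 to 1.18). Of 10 other attractant receptors 4 did. *C5ar1*, for the complement fragment C5a, was past 1.5-fold higher, with 123 CPM in Gata3KO and 63.8 in Wt (0.95). *C3ar1* (0.08), the chemerin receptor *Cmklr1* (0.06) and *Ptafr* (-0.37) were within 1.5-fold.

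Ligands of the 5 receptors were mostly lower in the Gata3KO class. Of 13 listed, 9 reached 20 CPM, with a median log2 ratio of -0.73; 5 were over 1.5-fold lower and 1 was over 1.5-fold higher. *Ccl7*, a ligand of Ccr1 and Ccr2, was the 1 that was higher (1.25), and *Ccl3* followed within 1.5-fold (0.53). *Ccl5* had 9.03 CPM in Gata3KO and 173 in Wt (-4.26), *Ccl12* had 22.7 CPM in Gata3KO and 94.2 in Wt (-2.05), and *Ccl8* had 93.4 CPM in Gata3KO and 254 in Wt (-1.44). *Ccl2*, the main attractant of monocytes, had 160 CPM in Gata3KO and 170 in Wt (-0.09). *Ccl12* is also the leading gene of the interferon-gene cluster, which held 40 Gata3KO and 249 Wt cells.

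Among 20 genes of signalling and uptake below chemokine receptors, 17 reached 20 CPM, with a median log2 ratio of 0.10. *Rgs1*, which shortens G protein signals, was over 1.5-fold higher, with 415 CPM in Gata3KO and 249 in Wt (0.73). *Grk3*, a kinase that desensitizes receptors, had 58.7 CPM in Gata3KO and 104 in Wt (-0.82), and *Frmd4a* had 39.3 CPM in Gata3KO and 68.9 in Wt (-0.81). The inhibitory G protein gene *Gnai2*, shared by all signalling chemokine receptors, stood at 841 CPM in Gata3KO and 733 in Wt (0.20).

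The mitochondrial limit removed most barcodes, so the receptors were also summed over every deposited barcode by mitochondrial share. *Cx3cr1* (log2 ratios 0.55 to 1.10), *Ccr1* (1.09 to 1.72) and *Ccrl2* (0.77 to 1.62) were higher in Gata3KO in 5 of 5 ranges, and *Ccr7* was lower in 5 of 5 (-3.33 to -1.03). *Ccr2* was lower in 4 of 5: at 0 to 5% mitochondrial UMIs it stood at 288 CPM in Gata3KO and 530 in Wt, and at 40 to 100% at 141 CPM in Gata3KO and 132 in Wt. In Gata3KO *Ccr2* stood between 288 and 315 CPM up to 20%, whereas in the Wt library it was lower in each higher range. In the 40 to 100% range the interval of the log2 ratio included 0 for *Ccr7*, *Ccr1* and *Ccr2*. *Ccr7* had 1 Gata3KO and 2 Wt UMIs there (-6.99 to 3.16), and *Ccr1* had 16 Gata3KO and 7 Wt UMIs (-0.27 to 2.61). For *Ccr2* the interval ran from -0.37 to 0.57. Within a range the cell types were not held equal.

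**Figure D4:**
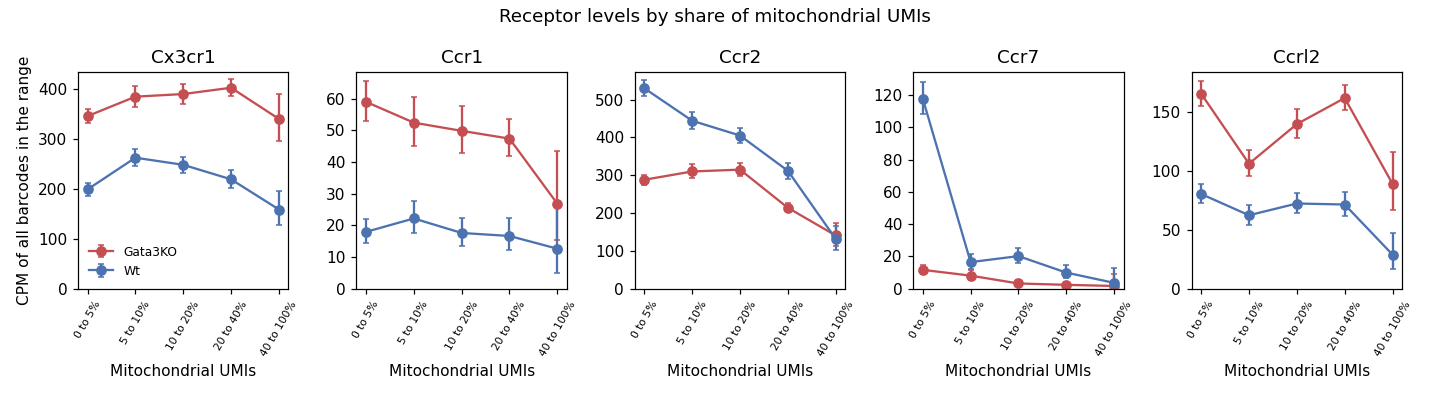
Receptor levels (y axes, CPM with 95% Poisson counting intervals) over all deposited barcodes in 5 ranges of mitochondrial share (x axes, % of UMIs), in red for Gata3KO and blue for Wt. The Gata3KO points of *Cx3cr1*, *Ccr1* and *Ccrl2* lie above those of Wt in each range, and those of *Ccr2* below up to 40%.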

How the data were processed

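The authors deposited 1 table of UMI counts per gene and barcode for each library. The build mm10, R 3.6.1, Seurat 3.0.2 and Cell Ranger 3.0.1 are named in the submitters' processing notes, without settings. The receptors and gene lists were chosen with earlier results of these data known. Cells had at least 500 UMIs, 200 genes and at most 10% mitochondrial UMIs, and were clustered jointly without integration (2000 variable genes, 30 principal components, 15 neighbours, Leiden resolution 0.6; scanpy 1.11.5, leidenalg 0.10.2). A cluster took the highest-scoring marker list with at least 3 detected markers and a score of at least 0.15, a rule changed after values had been seen; 1 cluster so named was left unnamed, because its leading genes went against the name. Scrublet called 4 of 650 Gata3KO and 1 of 990 Wt cells, which were left in; in the Wt library this is too few to show that doublets were found.

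Summed UMIs have exact Poisson intervals, ratios exact conditional binomial intervals and shares Clopper-Pearson intervals on expected cell numbers (scipy 1.17.1). Shares after thinning are exact hypergeometric expectations; this replaced single random draws, whose values varied, after those had been seen. Gene totals were simulated for both libraries as Poisson draws from the pooled profile of the kept cells (2897 genes judged). There 95.2% of intervals held the true ratio, and 200 of 200 changed genes had an interval on the right side. These draws follow the model behind the intervals and leave out the clumping of UMIs in cells, so they check the computation only. Medians, ranks and fold counts over many genes have 1 CPM added. Genes named beside the receptors are up to the 3 highest and 3 lowest of each list among those at 20 CPM, the 5 most alike, the 5 leading genes of a cluster, and further genes named after their values were seen (*Ccl2*, *Gnai2*, *Plac8*, *Ly6c2* and the monocyte markers at 0). Some listed genes are not reported here. Coordinates are from GENCODE M21. Alternatives are given in the closing section.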

Additional observations from a re-analysis of the deposited data

Results flagged for a closer look

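*Ccr2* differed in direction between clusters. The log2 ratio Gata3KO over Wt was 0.753 in the interferon-gene macrophage-like cluster and 0.197 in the cDC2-like cluster, against -0.525 in the *Gpnmb* cluster and -0.874 in the stress-gene cluster. The counting intervals of the first pair lie above 0 and those of the second pair below it. With 1 library per genotype the difference between clusters was not tested. The summed level of 9 monocyte markers was 3989 CPM in Gata3KO and 2761 CPM in Wt in the interferon-gene cluster, 1956 CPM in Gata3KO and 4127 CPM in Wt in the cDC2-like cluster, 731 CPM in Gata3KO and 846 CPM in Wt in the *Gpnmb* cluster, and 519 CPM in Gata3KO and 4436 CPM in Wt in the stress-gene cluster.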

How the results depend on the processing

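No paired analysis was possible because each genotype has 1 library. With the mean of the 3 cluster levels, added after seeing the data, *Ccr2* (0.31) and *Ccrl2* (-0.10) reversed, and *Cx3cr1* (0.74) and *Ccr1* (1.22) moved; no receptor's class ratio changed sign under the other alternatives run. Over all of them the class log2 ratios ranged from 0.33 to 0.86 for *Cx3cr1*, 0.34 to 1.52 for *Ccr1*, -1.16 to 0.31 for *Ccr2*, -5.75 to -2.03 for *Ccr7* and -0.10 to 1.04 for *Ccrl2*. Beyond the counting interval moved *Ccr1* (1.29) and *Ccr2* (-0.40) over every barcode; *Ccr1* (1.41) and *Ccr2* (-0.36) at up to 20% mitochondrial UMIs; *Cx3cr1* (0.59), *Ccr2* (-0.43) and *Ccrl2* (0.24) at 1000 UMIs and up to 5%; *Cx3cr1* (0.33), *Ccr1* (1.27) and *Ccr2* (-0.37) at resolution 0.3; *Ccr2* (-0.59) at resolution 1.2; *Cx3cr1* (0.67), *Ccr1* (1.52) and *Ccr2* (-0.74) over all kept cells; *Ccrl2* (1.04) with thinning; and *Cx3cr1* (0.86), *Ccr2* (-0.21), *Ccr7* (-2.03) and *Ccrl2* (0.036) with the mean of the clusters' log2 ratios. Also added after seeing the data were the resident macrophage-like portion (*Ccr1* 1.22, *Ccr2* -1.02), the interferon-gene cluster left out (*Ccr1* 0.34, *Ccr2* -0.63, *Ccrl2* 0.24) and the cell richest in each receptor left out. Changed cell limits and resolutions were each followed by a new clustering, so the class changed with them. At resolution 0.3, for example, the class held 65.8% of Gata3KO and 17.6% of Wt cells. The causes were not tested.

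The share of cells with a receptor, Gata3KO minus Wt in percentage points, was 3.94 for *Ccr1*, -0.80 for *Ccr7* and 10.6 for *Ccrl2*, and without thinning 16.6, -3.75 and 23.4. At up to 20% mitochondrial UMIs, with the cells reclustered, the difference was -6.48 for *Ccr2*, against -22.6 as reported. It was 3.17 for *Cx3cr1* without *Ccr2*, against 9.89, and -7.51 for *Ccr2* without *Cx3cr1*, against -19.6. Depth limits *Ccr7* outside mature dendritic cell-like cells, and *Ccr1* in dendritic cells.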
